A study of Mus musculus with 12 samples.

Results

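Mertk, Axl and Tyro3 are the TAM family of receptor tyrosine kinases, and Gas6 and Pros1 are their ligands. These 5 genes, taken by symbol from the 45777 genes of the deposited table together with their 16 of 129299 transcripts, were followed in purified astrocytes of the mouse cerebral cortex. Loss of the astrocyte glucocorticoid receptor went with lower Mertk and lower Gas6 RNA. With marker scores of microglia and endothelium as covariates neither difference passed, nor did that of any other of the 19163 genes tested. Axl stood at a similar level in all 4 groups, and the differences of Tyro3 and Pros1 did not pass the threshold.

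The 4 groups of 3 libraries cross genotype with early life stress. Cre- pups carried floxed copies of the glucocorticoid receptor gene (Nr3c1 flox/flox). AGR cKO pups carried in addition Aldh1l1-CreERT2, a recombinase that 4-hydroxytamoxifen switches on and that an astrocyte gene promoter drives. No group carried the recombinase with an intact receptor gene, so effects of the recombinase and of receptor loss cannot be told apart. All groups, Cre- included, received 4-hydroxytamoxifen (4-OHT) from postnatal day 5 to 7. ESD pups were kept from the dam for 3 hours a day between day 1 and day 14, so the separation began before the deletion. Control pups were not separated. Cells were taken on day 14 and purified with antibody-coated plates and magnetic beads. Nothing in the labels says whether a library stands for 1 animal, a pool or a separate preparation, so p-values measure the spread between these libraries, which may be technical.

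TAM receptors bind phosphatidylserine, a lipid that dying cells and some synaptic membranes expose, through bridging ligands. Gas6 binds all of the receptors, Pros1 binds Mertk and Tyro3, and both ligands are made active by vitamin K-dependent carboxylation. Mertk is the member best known in astrocytes, where it takes part in the engulfment of synapses, while Mertk and Axl also serve the clearance of dead cells by microglia and macrophages.

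In the mm10 annotation Mertk (gene ID 17289) lies on chromosome 2 from 128698915 to 128803162 on the plus strand, and Tyro3 (22174) on the same chromosome from 119797740 to 119818104, also on the plus strand. Axl (26362) lies on chromosome 7 from 25756500 to 25788924 on the minus strand, Gas6 (14456) on chromosome 8 from 13465374 to 13494535 on the minus strand, and Pros1 (19128) on chromosome 16 from 62854307 to 62929346 on the plus strand. The 250 bases before the start of a transcript of each are promoter sequence in RefSeq (GRCm38.p6), and 2 of the 5 are shown, those of Mertk and Gas6, the genes called lower without the receptor. Each reads from 5′ to 3′ on the strand of its gene. Capitals mark the GC box GGGCGG, a binding motif of Sp1, or its reverse complement CCGCCC.
Mertk, chr2:128698665-128698914: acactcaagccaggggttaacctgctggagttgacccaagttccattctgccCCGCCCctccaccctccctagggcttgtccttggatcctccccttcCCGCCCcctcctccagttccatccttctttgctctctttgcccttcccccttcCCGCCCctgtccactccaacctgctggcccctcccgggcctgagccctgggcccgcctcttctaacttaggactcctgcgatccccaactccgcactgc
Gas6, chr8:13494536-13494785: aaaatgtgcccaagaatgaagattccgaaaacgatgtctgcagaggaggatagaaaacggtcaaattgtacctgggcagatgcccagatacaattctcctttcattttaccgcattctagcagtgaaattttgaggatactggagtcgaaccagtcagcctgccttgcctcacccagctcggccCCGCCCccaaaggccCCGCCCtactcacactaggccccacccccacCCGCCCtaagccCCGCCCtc
These windows held 3 GC boxes in Mertk, 4 in Gas6 and 1 in Axl, against 3 in Tyro3 and 5 in Pros1. Of 32851 RefSeq promoters of the same length, 32.7% held at least 1. The GC content of the 5 windows ran from 54.8% to 73.2%, against a median of 52.4% over all windows. Its part in the number of GC boxes was not tested. The hexamer AGAACA of the glucocorticoid response element, searched like every motif on both strands, matched none of the 5 windows, while 16.1% of all windows held it. Its full palindrome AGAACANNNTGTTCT, which contains the hexamer, matched none of the 5 and 0.009% of all windows. The direct repeat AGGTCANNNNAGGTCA, a motif of the liver X receptors that are known to act on Mertk, matched none of the 5 and 0.015% of all windows. The search covered these letters in these windows only.

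Library totals ran from 42603546 to 52130081 counts, and all 5 genes passed the filter on low counts. Nr3c1, the targeted gene, separated the genotypes: CPM (counts scaled to library size) ran from 66.6 to 108 in the 6 AGR cKO libraries and from 199 to 237 in the 6 Cre- libraries. Its counts are over the whole gene, and may include RNA of copies without the floxed part. Summed CPM of 12 astrocyte markers was 40277 to 56316, and none of them was at 0. Markers of other cells were present too and differed between genotypes. The 15 microglial and macrophage markers summed to 368 to 1077 CPM in Cre- and 175 to 472 CPM in AGR cKO libraries, and the 12 endothelial markers to 451 to 2372 and 316 to 949 CPM, with no marker of either list at 0 in any library. Over both rearing conditions all 15 microglial markers were lower in AGR cKO (median log2 fold change -1.11, against -0.00 over all genes tested) and so were all 12 endothelial markers (median -1.02). None of them was called by edgeR, although 15 and 10 of them had an unadjusted p under 0.05. The 11 mural cell and fibroblast markers summed to 2884 to 5856 CPM in Cre- and 1875 to 5931 CPM in AGR cKO libraries. Among ESD pups all 11 were lower in AGR cKO (median -0.46, 0 called by edgeR and 3 at an unadjusted p under 0.05). Among control pups 6 were higher and 5 lower. The 8 oligodendrocyte precursor markers summed to 1506 to 1997 CPM. A fit with the microglial and endothelial scores as covariates is given below. Beyond that fit, the part of these cells in the TAM values was not tested. The library Cre- control 1 was the highest for the microglial and the endothelial list. Cre- ESD 3 stood apart in the glucocorticoid-induced genes Fkbp5, at 103 CPM against 3.35 to 11.1 CPM in the other 11 libraries, and Zbtb16, at 104 CPM against 7.25 to 54.5 CPM. Results are therefore also given without these 2 libraries, a choice made after seeing the data.

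Mertk, the engulfment receptor, was the most abundant receptor in Cre- astrocytes. Among control pups its CPM was 429, 512 and 520 in Cre- and 284, 285 and 296 in AGR cKO. Among ESD pups it was 570, 534 and 818 in Cre- and 349, 255 and 376 in AGR cKO. The highest AGR cKO library thus lay below the lowest Cre- library, with 376 against 429 CPM. Of all genes tested, 2.77% separated the 6 and 6 libraries in this way, 1.4% with AGR cKO lower.

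**Figure D1:**
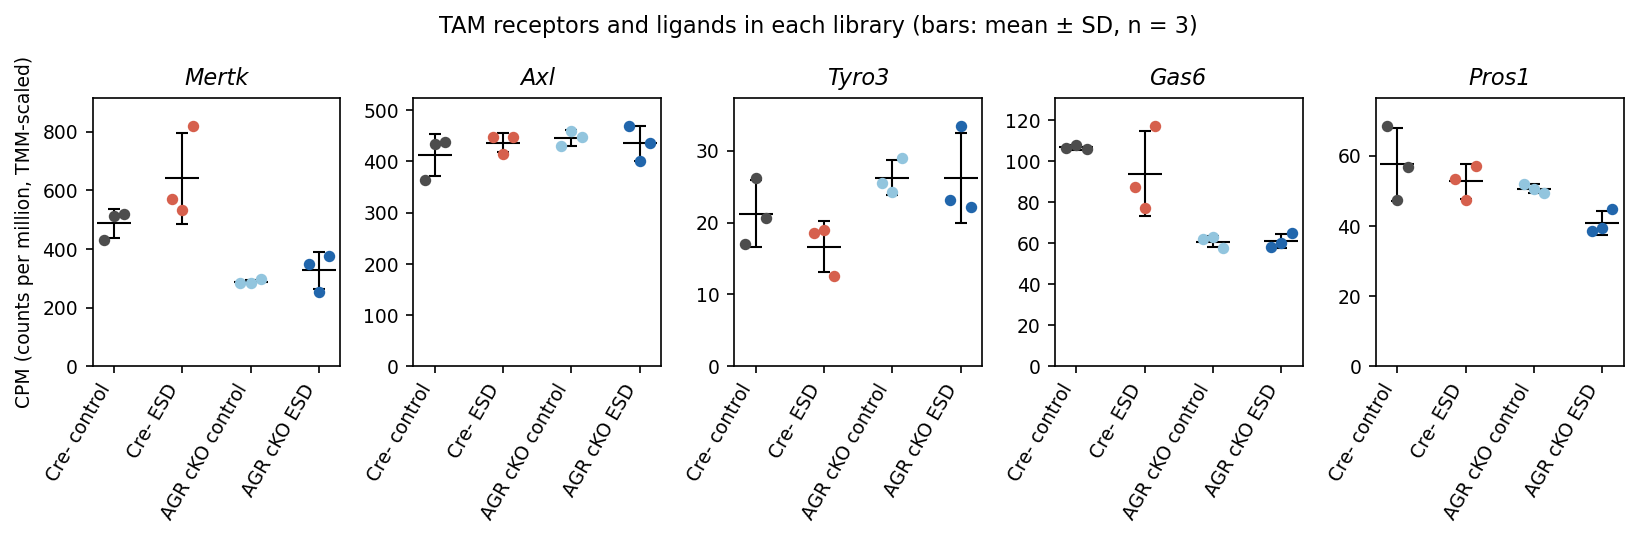
Level of each TAM gene in CPM (counts scaled to library size, linear axis from 0) in each library of the 4 groups. Points are libraries, the long bar is the mean and the whiskers are 1 SD of 3 libraries. Mertk and Gas6 are lower in all 6 AGR cKO libraries than in all 6 Cre- libraries, whereas Axl, Tyro3 and Pros1 overlap between genotypes.

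Over both rearing conditions Mertk was lower in AGR cKO by a log2 fold change of -0.86 ± 0.12 (SE, 95% interval -1.13 to -0.60), with an edgeR adjusted p of 0.00662. In ESD pups alone the log2 fold change was -0.97 ± 0.17 (adjusted p = 0.0326). In control pups it was -0.76 ± 0.17 and did not pass (adjusted p = 0.226). That these values differ between control and ESD was not shown, since the interaction was -0.22 ± 0.24 (95% interval -0.74 to 0.31, adjusted p = 0.999). Mertk overlaps an antisense gene, Gm14011, on the opposite strand and a snoRNA gene, Gm23172, on its own strand. Values of these neighbours are not given here, and the sources used here do not say whether the strand entered the counting. In bulk samples fewer cells of a type and less RNA per cell cannot be told apart.

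Separation itself went with a Mertk log2 fold change of 0.40 ± 0.17 in Cre- pups (95% interval 0.02 to 0.77, adjusted p = 0.691). In AGR cKO pups it was 0.18 ± 0.17 (adjusted p = 0.85). The 3 Cre- ESD libraries all lay above the 3 Cre- control libraries, but the lowest of them, 534 CPM, was close to the highest control, 520 CPM. Without Cre- control 1 and Cre- ESD 3, the stress value in Cre- was 0.10 (adjusted p = 0.821). Under separation in Cre- 12 of 12 endothelial markers were lower (median log2 fold change -0.26), 7 of 15 microglial markers were higher and 8 lower (-0.02), and 9 of 12 astrocyte markers were higher (0.09), with 0 called and 0 at an unadjusted p under 0.05 in these lists.

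Axl is the receptor that binds Gas6 and not Pros1. Its levels were 365, 435 and 438 CPM in Cre- control and 447, 415 and 448 CPM in Cre- ESD. They were 430, 460 and 447 CPM in AGR cKO control and 469, 401 and 436 CPM in AGR cKO ESD. All groups overlapped, and the genotype difference over both conditions was 0.05 ± 0.06 on the log2 scale (edgeR adjusted p = 0.713). Its 95% interval, -0.08 to 0.19, does not reach the size of the Mertk or Gas6 difference.

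Tyro3, the TAM receptor best known from neurons, was the least abundant of the 5 genes. CPM was 17.0, 26.2 and 20.6 in Cre- control, 18.5, 18.9 and 12.5 in Cre- ESD, and in AGR cKO 25.5, 24.3 and 28.9 under control rearing and 23.2, 33.4 and 22.1 after separation. The genotypes overlapped in control pups and did not overlap in ESD pups. The log2 fold change was 0.48 ± 0.14 over both conditions (edgeR adjusted p = 0.0925) and 0.66 ± 0.21 in ESD pups (adjusted p = 0.165), opposite in sign to that of Mertk. DESeq2 called it over both conditions and in ESD pups. Summed CPM of 12 neuronal markers ran, among control pups, from 31.8 to 39.9 for Cre- and from 54.5 to 71.2 for AGR cKO, and among ESD pups from 35.5 to 51.4 and from 33.8 to 37.8. No neuronal marker was at 0. By genotype, 12 of 12 were higher in AGR cKO among control pups (median log2 fold change 0.52, 0 called by edgeR and 5 at an unadjusted p under 0.05). Among ESD pups 11 of 12 were lower (median -0.60, 7 of the 12 at an unadjusted p under 0.05), and the single one that was higher was called. The part of neuronal RNA in the Tyro3 values was not tested.

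Gas6 is the ligand shared by the 3 receptors. In control pups it stood at 106, 108 and 106 CPM in Cre- and at 61.9, 62.9 and 57.7 CPM in AGR cKO. In ESD pups it stood at 87.5, 77.3 and 117 CPM in Cre- and at 58.1, 60.1 and 64.9 CPM in AGR cKO. The genotypes did not overlap in either condition, with 64.9 CPM as the highest AGR cKO and 77.3 CPM as the lowest Cre- value.

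Gas6 was lower in AGR cKO by a log2 fold change of -0.72 ± 0.09 over both conditions (95% interval -0.91 to -0.53, edgeR adjusted p = 0.00428). The values were -0.81 ± 0.12 in control pups (adjusted p = 0.0818) and -0.62 ± 0.12 in ESD pups (adjusted p = 0.0431). Among all 19163 genes ordered by p over both conditions, Gas6 was at place 15 and Mertk at place 40. Separation gave -0.19 ± 0.12 in Cre- (adjusted p = 0.755) and 0.00 ± 0.12 in AGR cKO (adjusted p = 0.998). The value in Cre- was -0.37 without Cre- ESD 3 (adjusted p = 0.204), -0.06 without Cre- ESD 2 (adjusted p = 0.973) and -0.38 without Cre- control 1 and Cre- ESD 3 (adjusted p = 0.178). Gas6 overlaps Tmem255b on the opposite strand, with the same limit on strand. Tmem255b itself had 10 to 74 counts in each library, against 2525 to 5372 for Gas6.

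Pros1, protein S, which is also a cofactor of the anticoagulant protein C, stood at 68.4, 47.5 and 56.7 CPM in Cre- control and at 53.5, 47.5 and 57.2 CPM in Cre- ESD. In AGR cKO it stood at 51.9, 50.6 and 49.4 CPM in control and at 38.6, 39.3 and 44.8 CPM in ESD pups. The AGR cKO ESD libraries were below all 9 others. No test of Pros1 passed: the log2 fold change by genotype was -0.28 ± 0.09 over both conditions (edgeR adjusted p = 0.0983) and -0.37 ± 0.12 in ESD pups (adjusted p = 0.183), and that of separation in AGR cKO was -0.31 ± 0.12 (adjusted p = 0.647). DESeq2 called the genotype difference over both conditions. Under separation in AGR cKO markers of other cells moved too: 12 of 12 neuronal (median log2 fold change -0.82), 10 of 11 mural cell and fibroblast (-0.75) and 12 of 12 endothelial markers (-0.34) were lower, and 12 of 12 astrocyte markers were higher (0.14). None was called by edgeR, and 8, 6, 0 and 2 of them had an unadjusted p under 0.05. Their part in the Pros1 value was not tested.

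**Figure D2:**
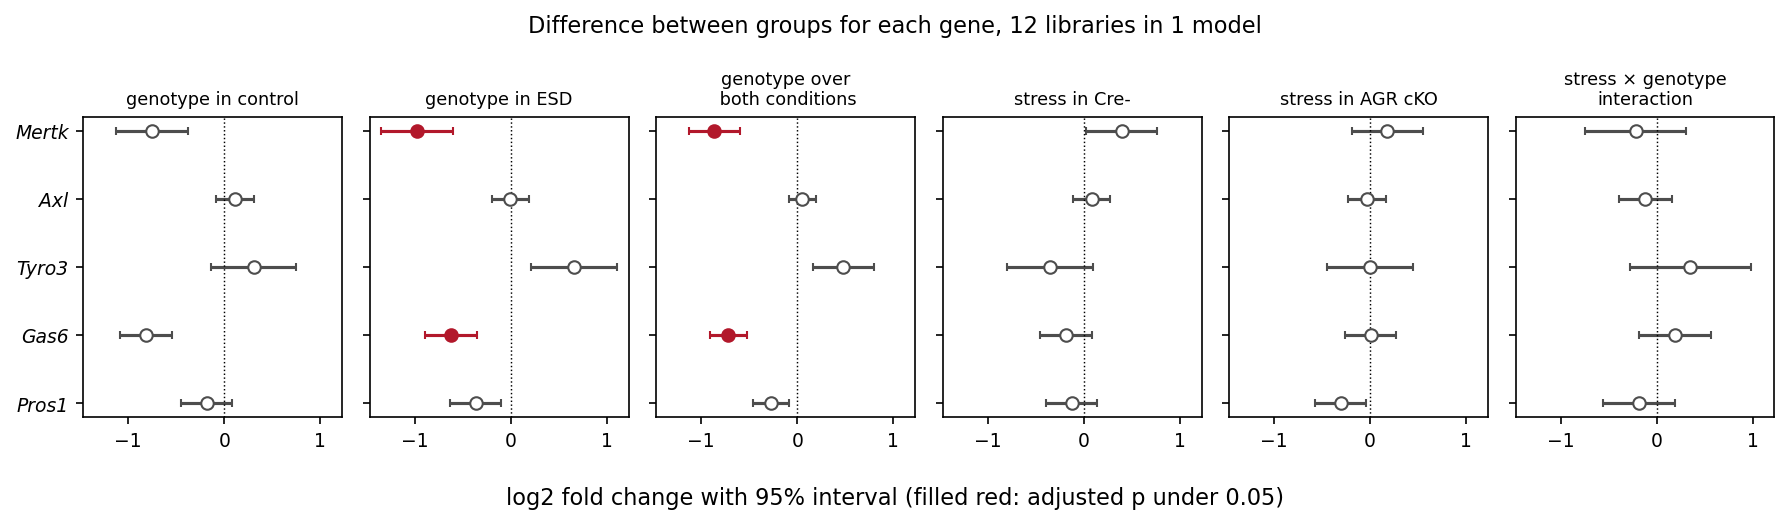
Log2 fold change (horizontal axis) of each TAM gene (vertical axis) in 6 contrasts of the shared model, with 95% intervals. Genotype is AGR cKO against Cre-, stress is ESD against control, and filled red marks an adjusted p under 0.05. Mertk and Gas6 lie left of 0 in the 3 genotype panels, at -0.86 and -0.72 over both conditions, while Axl stays near 0.

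By edgeR 2 of the 5 genes, Mertk and Gas6, were called lower in AGR cKO over both conditions, where 3.49% of all genes tested were called and 1.94% were called lower. Mertk and Gas6 were also called in ESD pups, against 1.04% of all genes called and 0.459% called lower. In control pups 0 of 5 were called, against 0.0157% of all genes. There 2 of 5 had an unadjusted p under 0.05, against 1958 of all 19163 genes. DESeq2 called Mertk and Gas6 in control pups too, where it called 1.61% of genes. It called 3 of 5 in ESD pups (5.17% of genes) and 4 of 5 over both conditions (9.03% of genes).

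For separation, edgeR called 0 of 5 in Cre- (0% of all genes), 0 of 5 in AGR cKO (0%), 0 of 5 over both genotypes (0%) and 0 of 5 for the interaction (0%). At an unadjusted p under 0.05 stood 1 of 5 in Cre-, namely Mertk, 1 of 5 in AGR cKO, namely Pros1, 2 of 5 over both genotypes and 0 of 5 for the interaction. Of all 19163 genes 1378, 1453, 1987 and 860 stood there, in the same order. DESeq2 called 0 of 5 in each, against 26, 23, 38 and 9 of all genes. Single genes also separated the 3 and 3 libraries, called or not. This held for Mertk under separation in Cre- (11.1% of all genes), Pros1 under separation in AGR cKO (16.6%), Mertk and Gas6 by genotype in control pups (16.9%), and Mertk, Gas6, Tyro3 and Pros1 by genotype in ESD pups (19.9%). Of these, edgeR called only Mertk and Gas6 in ESD pups. The contrasts share libraries, so they are not separate observations.

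Levels of different genes were compared per length, as deposited TPM (transcript levels scaled for length and library). In Cre- control the order was Mertk at 312 ± 20.2, Axl at 263 ± 30.7, Gas6 at 120 ± 5.04, Pros1 at 51.3 ± 11.6 and Tyro3 at 15.4 ± 2.69 TPM (SD, n = 3). In AGR cKO control Axl came first with 289 ± 17.4 TPM, followed by Mertk at 186 ± 4.04, Gas6 at 68.3 ± 3.81, Pros1 at 44.8 ± 2.01 and Tyro3 at 19.2 ± 1.69 TPM. Mertk and Axl thus traded places. In ESD pups the order was the same as in the controls of each genotype, with Mertk at 401 ± 97.7 and Axl at 268 ± 9.28 TPM in Cre- against 205 ± 35.1 and 263 ± 6.20 TPM in AGR cKO. In those pups Gas6 stood at 102 ± 22.5 and 67.2 ± 4.74 TPM, Pros1 at 45.1 ± 4.00 and 35.4 ± 3.13 TPM, and Tyro3 at 11.8 ± 2.49 and 18.8 ± 5.09 TPM. No neighbours in these orders overlapped between libraries of a group. The ratio of Mertk to Axl TPM within a library ran from 1.14 to 1.98 in Cre- and from 0.608 to 0.897 in AGR cKO.

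**Figure D3:**
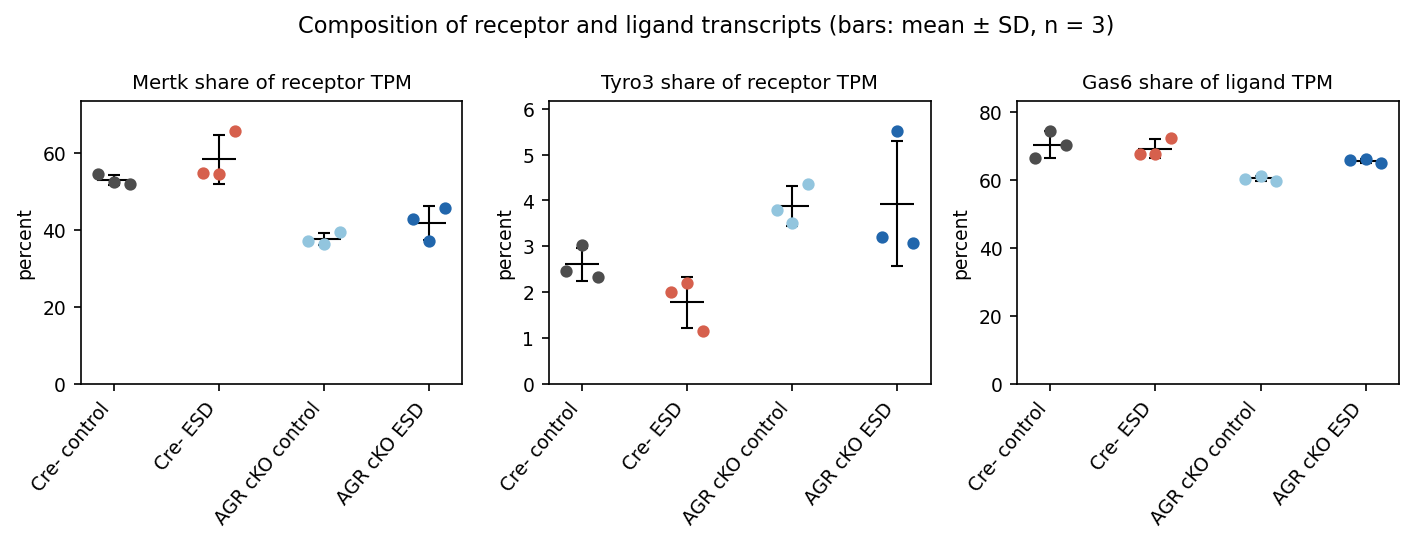
Share of Mertk and of Tyro3 in the summed TPM of the 3 receptors, and share of Gas6 in the summed TPM of the 2 ligands, in percent from 0, by group. Points are libraries, the long bar is the mean and the whiskers are 1 SD of 3 libraries. The Mertk share is 52.0% to 65.7% in Cre- and 36.5% to 45.8% in AGR cKO libraries.

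Mertk made up 55.7% of receptor TPM in Cre- and 39.8% in AGR cKO libraries, a difference of -15.9 points. The Tyro3 share was higher by 1.72 points, at 3.91% against 2.19%. The Gas6 share of ligand TPM was 69.7% in Cre- and 62.9% in AGR cKO, a difference of -6.78 points. Each of these 3 gave p = 0.005 in a two-sided exact permutation test of genotype within rearing condition, the smallest p that its 400 arrangements allow (0.01 after Benjamini-Hochberg adjustment over 6 tests). The same test of separation within genotype gave 4.80 points for the Mertk share (exact p = 0.035, adjusted 0.0525), -0.39 points for Tyro3 (exact p = 0.42, adjusted 0.42) and 1.95 points for Gas6 (exact p = 0.28, adjusted 0.336). A share moves with every gene in its sum, and these tests were chosen after the levels had been seen.

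**Figure D4:**
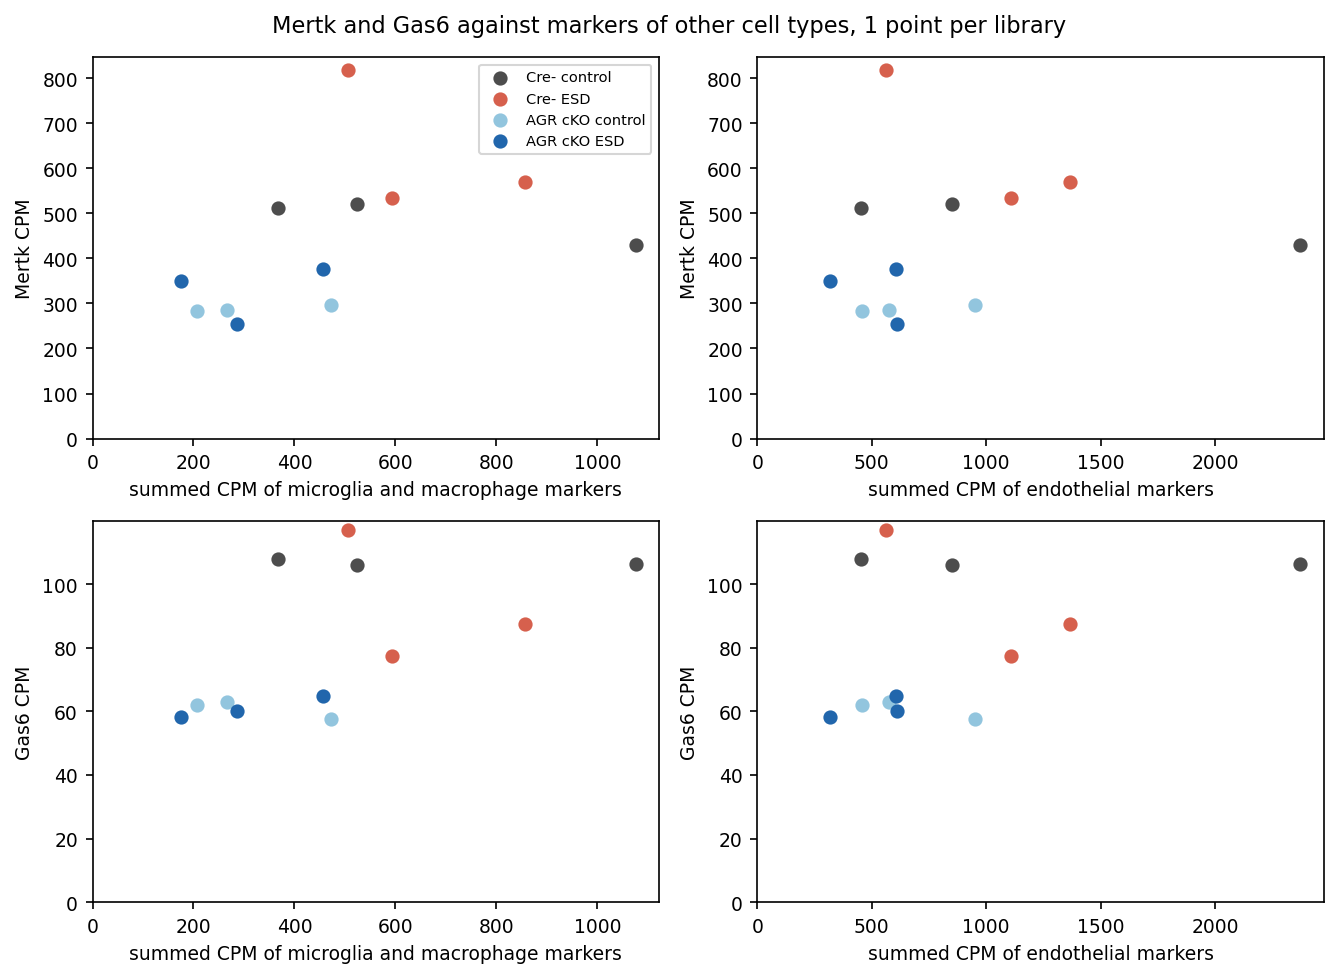
Mertk (top) and Gas6 (bottom) in CPM on the vertical axes against summed CPM of 15 microglial and macrophage markers (left) and 12 endothelial markers (right), all axes linear from 0, 1 point per library and coloured by group. Microglial sums are 368 to 1077 CPM in Cre- and 175 to 472 CPM in AGR cKO libraries, endothelial sums 451 to 2372 and 316 to 949 CPM, and both are lower in AGR cKO, as are Mertk and Gas6.

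Microglia and macrophages also express TAM genes, and their markers were lower in AGR cKO, as were those of endothelium. The sums of both lists overlapped between genotypes. With the scores of both marker lists as covariates, the difference over both conditions was -0.70 for Mertk (edgeR adjusted p = 0.167) and -0.61 for Gas6 (adjusted p = 0.205), and neither was called there or in ESD pups. In that fit edgeR called 0 of all 19163 genes over both conditions, with 1518 at an unadjusted p under 0.05. Nr3c1, the targeted gene, was thus not called there either. Without Cre- control 1 and Cre- ESD 3 both stayed called, Mertk at -0.80 (adjusted p = 0.00222) and Gas6 at -0.62 (adjusted p = 0.000574), and both were called within control pups as well. Over both conditions the 2 genes stayed called whichever single library was left out. The calls within ESD pups were less firm. Leaving out 1 library ended the Mertk call in 9 of 12 fits (adjusted p 0.0511 to 0.108) and the Gas6 call in 10 of 12 (0.0526 to 0.147). In those 9 fits edgeR called 2 to 67 of all genes in ESD pups. It called 144 to 280 in the fits that kept Mertk, and 200 of 19163 with all libraries. Mertk kept its call without Cre- control 1, Cre- control 2 or Cre- ESD 2, and Gas6 without Cre- control 1 or Cre- ESD 2. Without Cre- ESD 3 the values in ESD pups were -0.76 for Mertk (adjusted p = 0.0739) and -0.43 for Gas6 (adjusted p = 0.0697).

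The deposited transcripts split the Mertk count in 2. The main transcript, which begins at the first start site, held 82.9% of the Mertk count on average (73.7% to 88.7% in single libraries), and the rest belonged to a transcript that begins 5652 bases downstream. Over both conditions the log2 fold change by genotype was -0.88 ± 0.13 for the main and -0.79 ± 0.20 for the other transcript. Neither passed over 62862 transcripts (edgeR adjusted p = 0.11 and 0.431). The share of the main transcript was 82.6% in AGR cKO and 83.2% in Cre-, a difference of -0.61 points (exact permutation p = 0.82, adjusted 0.82). The single Gas6 transcript gave -0.71 ± 0.09 (edgeR adjusted p = 0.0792).

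Of the 16 transcripts 13 were tested, and 0 were called by genotype in control pups (0.00159% of all transcripts called), in ESD pups (0.00795%) or over both conditions (0.0143%). Transcript counts varied far more than gene counts, with a common biological coefficient of variation of 0.986 against 0.1945. Axl shows this most plainly. While its gene count had a median CV of 5.75% within groups, its 7 transcripts had CVs from 45.8% to 173%, and 1 of them held 75.7% of the count in AGR cKO control 1 and 1.24% in AGR cKO ESD 1. The share of the most abundant Axl transcript was 29.2% in AGR cKO and 27.2% in Cre- (exact permutation p = 0.815, adjusted 0.82). Tyro3 was read almost wholly as 1 transcript, with 98.7% of its count on average.

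**Figure D5:**
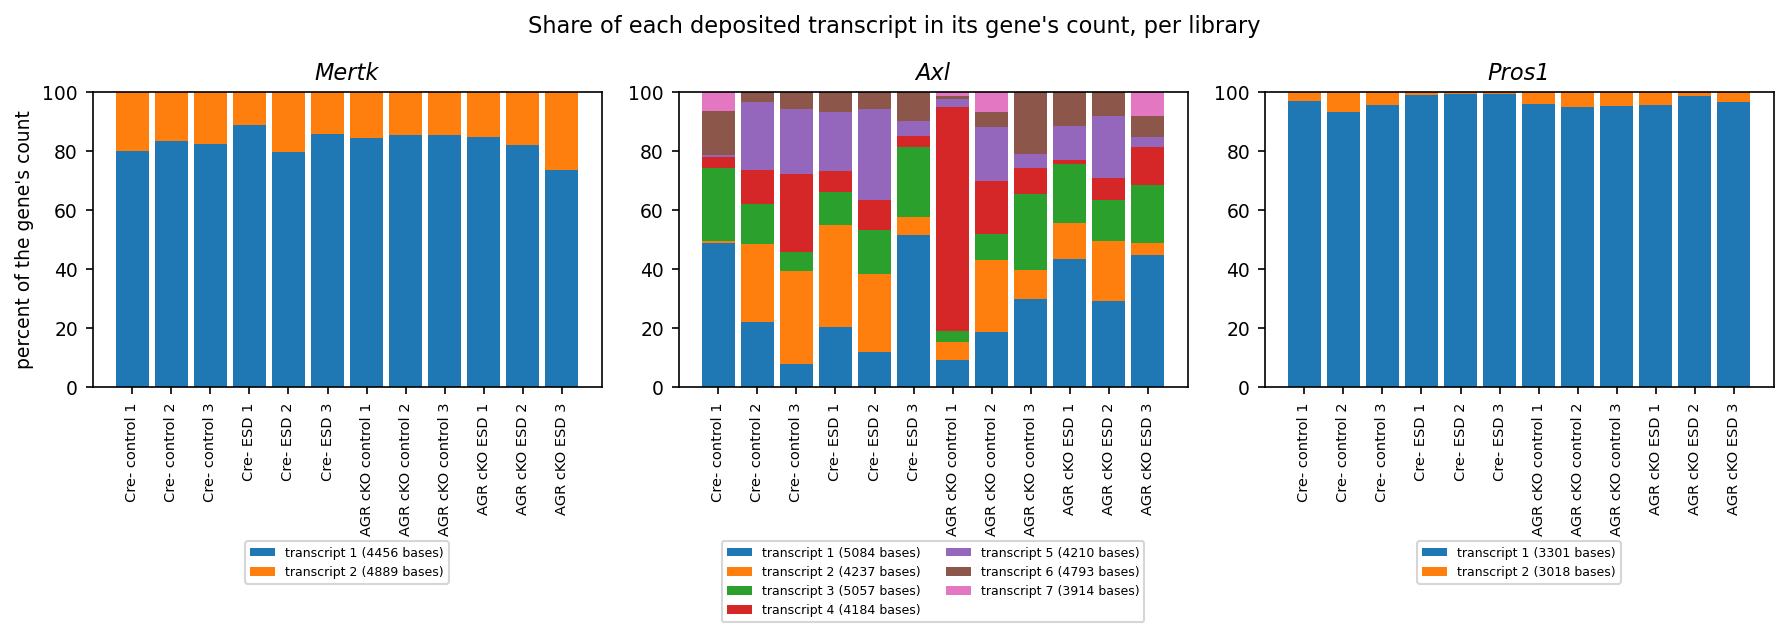
Share of each deposited transcript in the count of its gene, in percent, stacked to 100% for each of the 12 libraries, for Mertk, Axl and Pros1, with transcripts numbered by mean share and given with their length. The main Mertk transcript stays between 73.7% and 88.7%, while the shares of the 7 Axl transcripts change from library to library within every group.

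Beyond the members, 53 of 55 listed genes of the pathway were tested. Over both conditions 26 were higher and 27 lower in AGR cKO, with a median log2 fold change of -0.01 against -0.00 over all genes. Called were 1 higher and 1 lower, a share near the 3.49% of all genes called. Neither was called with the marker covariates, where 0 of all 19163 genes were. An unadjusted p under 0.05 was found for 16 of 53, against 3841 of all 19163 genes. In each of the other 6 contrasts edgeR called 0 of 53, with 3 to 13 at an unadjusted p under 0.05, against 860 to 2989 of all genes.

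Among 6 nuclear receptors known to act on Mertk, Rxra was called lower, with 3 of the 6 higher and 3 lower in value. This partner of the liver X and peroxisome proliferator-activated receptors stood at 38.6 ± 3.04 CPM in Cre- control, 45.3 ± 13.3 CPM in Cre- ESD, 25.4 ± 0.94 CPM in control AGR cKO and 26.4 ± 3.27 CPM in separated AGR cKO pups (SD, n = 3). Its log2 fold change over both conditions was -0.69 ± 0.12 (edgeR adjusted p = 0.0127). The other 5, among them the liver X receptors Nr1h2 and Nr1h3, were not called.

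Of 15 signalling genes of engulfment, 6 were higher and 9 lower, and Gulp1, an adaptor of engulfment receptors, was called higher. Its level was 25.3 ± 1.10 CPM in Cre- control, 22.0 ± 1.03 CPM in Cre- ESD, 31.5 ± 5.95 CPM in control AGR cKO and 28.1 ± 1.26 CPM in separated AGR cKO pups (SD, n = 3), a log2 fold change of 0.33 ± 0.08 (edgeR adjusted p = 0.048). The Rac and Dock genes downstream of Mertk, Rac1 and Dock1, were not called.

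The remaining lists held no called gene in any contrast. Where a gene is named, it is the member of its list with the smallest p over both conditions. Of 5 vitamin K cycle genes, 2 were higher and 3 lower, and Vkorc1l1 gave 0.20 ± 0.08 (edgeR adjusted p = 0.212). Of 9 survival and feedback genes, 4 were higher and 5 lower. Of 11 scramblases and flippases, which set how much phosphatidylserine a membrane exposes, 8 were higher and 3 lower. Of 3 genes of the integrin module that can work beside Mertk, 1 was higher and 2 lower, and Itgav gave -0.30 ± 0.11 (adjusted p = 0.16). The 2 sheddases, which cut TAM receptors from the cell surface, were split 1 and 1, and Adam10 gave -0.14 ± 0.09 (adjusted p = 0.439). Of the other reported Mertk ligands 2 were tested, split 1 and 1, and galectin-3 (Lgals3) gave 0.13 ± 0.25 (adjusted p = 0.834). Megf10, the engulfment receptor that works beside Mertk in astrocytes and is given whatever its p, gave -0.07 ± 0.11 (adjusted p = 0.793).

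Likeness to a member was measured as the root mean square difference of log2 CPM profiles over the 12 libraries, each centred on its own mean, among 11215 genes. Closest to Mertk were Npas2 at 0.0852, Acot11 at 0.109, Mt2 at 0.126, Ogdhl at 0.158 and Slc29a3 at 0.161, where Mertk varies by 0.492 around its own mean. Npas2, a clock transcription factor, had 45.0 ± 4.38 CPM in Cre- control and 56.9 ± 9.99 CPM in Cre- ESD, against 25.7 ± 1.55 and 29.0 ± 5.62 CPM in the matching AGR cKO groups (SD, n = 3). Mt2, a metallothionein, stood at 250.3 ± 57.7 and 307 ± 86.9 CPM in Cre- and at 146 ± 8.49 and 162 ± 16.4 CPM in AGR cKO. Closest to Gas6 were Astn2 at 0.144 and Ccdc3 at 0.151, to Axl Zfp706 at 0.0407 and Pafah1b1 at 0.0452, to Tyro3 Ankrd6 at 0.142 and Galnt16 at 0.150, and to Pros1 Rassf8 at 0.0789 and Cxcr4 at 0.0807. The measure favours genes that vary little where the member varies little, as Axl does, with 0.0936 around its own mean.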

How the data were processed

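RNA of 12 libraries, 3 per group, was sequenced after a stranded poly(A) library kit, per the labels' protocols. Groups follow the sample titles, since the number inside the gene and transgene names of the genotype entries counts up with the replicate in some groups. Column names were matched to titles with "cre_M" and "cre_P" read as Cre minus and Cre plus. The authors deposited whole-number counts per gene and per transcript, and per the file headers also FPKM and TPM values. Tools listed, per the submitters' processing notes and with no role or order, are DESeq2, StringTie 1.3.4b, HISAT2 2.1.0, HISAT, Bowtie2 and Trimmomatic, with genome build mm10. The way counts were made and any use of the strand are not given in the sources used here. Gene counts equalled the summed counts of the gene's transcripts for the 5 members.

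Gene counts were filtered with filterByExpr (19163 of 45777 genes kept), scaled by TMM and fitted with the quasi-likelihood test of edgeR 4.0.16 in R 4.3.3, with 1 mean per group over all 12 libraries and 8 residual degrees of freedom. A gene was called, two-sided, where its p adjusted by Benjamini-Hochberg across the tested genes was under 0.05. The standard error is the log2 fold change over the square root of F. Transcripts were fitted in the same way (62862 kept). CPM is the TMM-scaled value computed here. On simulated counts of genes at 5 CPM or more, 89% of genes changed by log2 1 and 99% of those changed by log2 2 were recovered for the genotype contrast in ESD pups, and 25% of transcripts changed by log2 2. Shares were compared with exact permutation tests. With 3 against 3 such a test cannot go below 0.1, so genotype was permuted within condition.

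The pathway lists (ligands, vitamin K cycle, sheddases, engulfment, survival, integrin, lipid exposure and nuclear receptors) and the marker lists, as well as the 5 members, were chosen with earlier results of these data known. Named from each list are called genes, at most 3 per contrast, or else the gene of smallest p over both conditions, some of which are not reported here. Nr3c1 and Megf10 are always named, as are the 5 genes most like Mertk and the 2 most like each other member among tested genes whose mean reached 5 CPM. Nr1h2, Nr1h3, Rac1, Dock1 and Tmem255b stand outside that rule, and so do Fkbp5 and Zbtb16. Alternatives were DESeq2 1.42.0, other scalings and filters, only the groups compared, a replicate block, limma-trend (limma 3.58.1) on log2 TPM, marker covariates and each library left out.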

Additional observations from a re-analysis of the deposited data

How the results depend on the processing

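Over both rearing conditions the calls of Mertk and Gas6 held under other scalings and filters, DESeq2, limma-trend, the replicate block and each left-out library, and were lost only with the marker covariates, where 0 of 5 members were called in this contrast and in ESD pups. DESeq2 called 4 members over both conditions and 2 in control pups. In control pups 2 were also called with only the groups compared (31 of all 18279 genes) and without Cre- control 1 and Cre- ESD 3 (159 of 19482). In ESD pups, where edgeR called 2, 1 was called with no filter on low counts and with limma-trend on TPM with 1 or 0.1 added, and 0 with only the groups compared. Over all genes the fit without a filter called 100 of 29488 and the 2 limma-trend fits 142 and 162 of 19163. With only the groups compared 0 of all 18420 genes were called. Leaving out each library in turn gave 0 to 2 calls in ESD pups, 0 to 2 in control pups (2 without Cre- ESD 3) and 2 to 4 over both conditions (4 without Cre- control 2). Over all genes these fits called 2 to 280 in ESD pups, 0 to 63 in control pups and 151 to 932 over both conditions. The covariates use up 2 of 8 residual degrees of freedom. With them the values over both conditions were smaller too, at -0.70 against -0.86 for Mertk and -0.61 against -0.72 for Gas6. The cause of these and the other changes was not tested.

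Changes of sign concerned small values that were not called. For separation in AGR cKO, Tyro3 was 0.0033 with DESeq2, 0.0034 with median-of-ratios, 0.012 with upper-quartile scaling and 0.037 with covariates, and -0.21 to 0.10 with 1 library left out. Gas6 there was -0.0024 with only the groups compared, -0.024 and -0.025 with limma-trend and -0.090 with covariates, and -0.048 to 0.043 with 1 library left out. Mertk there was -0.0098 with covariates, and Axl -0.086 to 0.022 with 1 library left out. For separation over both genotypes, Axl was -0.049 with both limma-trend fits, -0.011 with covariates, -0.025 without Cre- control 1 and Cre- ESD 3, and -0.016 to 0.053 with 1 library left out. Without those 2 libraries Axl was -0.016 for separation in Cre- and 0.013 by genotype in ESD pups, where it ran from -0.059 to 0.050 with 1 left out, and the Mertk interaction was 0.082. Pros1 under separation in Cre- ran from -0.24 to 0.016. The genotype difference in the main transcript's share ran from -1.36 to 1.18 points for Mertk and from -1.75 to 6.95 for Axl.

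Same-numbered libraries correlated at -0.10 to 0.23 in their deviations from the group means, not above 0.1 in every pair of any contrast, so the numbers were not taken to pair samples. With a replicate block the genotype difference over both conditions was -0.86 for Mertk and -0.71 for Gas6, both called, and the Gas6 value for separation in AGR cKO was -0.00044. The block changed no call of a member.

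The shares kept their genotype differences with 1 library left out, from -17.1 to -13.9 points for Mertk. The separation difference in the Mertk share ran from 1.69 to 7.42 points and passed without Cre- control 1, Cre- control 2 or AGR cKO ESD 2. That in the Gas6 share ran from 0.828 to 3.73 points and passed without Cre- control 2 (adjusted exact permutation p = 0.036), and that in the Tyro3 share from -0.92 to -0.046 and passed without AGR cKO ESD 2 (adjusted p = 0.006). Of transcripts simulated with a log2 change of 2, 25% were recovered, and the part of depth in this was not tested.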

Other observations

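A minor Pros1 transcript, which begins 36027 bases downstream of the first start, was noticed after its values were seen. It had 101, 140 and 107 counts in Cre- control and 27, 19 and 16 in Cre- ESD. In AGR cKO it had 105, 122 and 102 counts in control and 86, 30 and 70 in ESD pups. The 3 Cre- ESD libraries were the lowest of the 12. The log2 fold change under separation in Cre- was -2.62 ± 0.49, with an edgeR adjusted p of 0.578 over all transcripts, so it did not pass. It held 3.37% of the Pros1 count on average, and the count of the whole gene gave -0.13 ± 0.12 (adjusted p = 0.846).

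Tmem255b, which overlaps Gas6 on the opposite strand, was itself called lower in AGR cKO over both conditions, with a log2 fold change of -1.26 ± 0.26 (edgeR adjusted p = 0.0261). With the marker covariates it was not called, nor was any other gene in that contrast. Tmem255b was named after its values were seen. Whether reads of Gas6 enter its count was not tested.

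Other marker lists were compared between genotypes over both conditions. Each of 11 markers of mural cells and fibroblasts was lower in AGR cKO (median log2 fold change -0.26, 0 called by edgeR and 1 at an unadjusted p under 0.05). All 5 erythroid markers were lower (median -1.04, 0 called and 5 at an unadjusted p under 0.05), as were 7 of 8 ependymal and choroid plexus markers (median -0.67, 4 called). Of 12 astrocyte markers 9 were lower (median -0.11), with 2 called lower and 1 called higher. Neuronal markers were split 6 and 6 (1 called higher), a sum over shifts of opposite direction in control and ESD pups: the interaction was negative in 12 of 12 (median -1.12, 0 called and 6 at an unadjusted p under 0.05). Markers of oligodendrocyte precursors were split 4 and 4, and those of oligodendrocytes were higher in 5 of 8 tested, with 0 called in either of the last lists and 3 and 1 at an unadjusted p under 0.05.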
